A study of Ovis aries with 5 samples.

Results

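Dendritic cells (DC) carried from the skin in sheep lymph were sorted as CD1b+CD26- cells, and their RNA was compared with RNA of total enriched lymph DC. 3 of the 5 arrays of the series carry this comparison. They are 2 arrays of CD26- cells, 1 from sheep 30066 and 1 from sheep 10081, and 1 self-hybridisation with total DC RNA in both dyes. Members were chosen by sample title alone, and the remaining 2 arrays, of CD1b+CD26+ cells from the same animals, entered only the shared estimate of the spread and 1 test.

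RNA was extracted with an RNeasy Micro kit, 200 ng were amplified, and the CD26- RNA was always labelled with Cy3 and the reference with Cy5, with no dye swap. The reference came from sheep other than 30066 and 10081, so that it differs from the CD26- samples in animal as well as in cell sorting. Total DC would also hold CD26- cells, in a proportion that is not given in the labels. The labelling protocol names RNA of the cultured cell line LP-1cl1 as the reference, against the sample labels, which are followed here. No treatment other than sorting, and no breed or age, is named in the labels. All arrays lay on 1 slide, with sheep 30066 in the row of the self-hybridisation and sheep 10081 in the other row, so that animal and slide row cannot be told apart. With bulk RNA, more cells of a type and more RNA per cell cannot be told apart either.

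DC take up antigen in tissues, travel through the afferent lymph and show antigen to T cells in the lymph node, as peptides on MHC molecules or as lipids on CD1 molecules. They add costimulatory ligands such as CD86, and cytokines that steer the T cell response. CD26 is a peptidase of the cell surface that separates subsets of sheep lymph DC, and its gene, DPP4, was not analysed here.

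The arrays hold 15008 distinct probes of 60 bases, 1546 of which could be named, for 876 sheep genes. The probe with the highest mean intensity stands for a gene. A probe was tested if it was well above background in Cy3 on both CD26- arrays or in both dyes of the self-hybridisation, which 12642 probes and 697 named genes were. The remaining 179 named genes were too dim and have no value. Between 81.1% and 89.5% of probes were well above background in Cy3 on the 3 arrays. The SD of the log2 ratio over probes was 0.30 on the self-hybridisation, 1.21 in sheep 30066 and 1.36 in sheep 10081. The DC genes CD1B, DRA, DRB1 and CD86 were well above background on all 3 arrays. Most probes were, so this does not check the label of the cells.

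Values below are log2 ratios of Cy3 over Cy5, in the order sheep 30066, sheep 10081, self-hybridisation. A difference is the mean of both CD26- ratios minus the ratio of the self-hybridisation, on the log2 scale, with its standard error (SE) from limma, a linear model fitted over all probes with the spread shared among the 5 arrays (n = 2 CD26- arrays and 1 self-hybridisation).

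No probe passed an adjusted p of 0.05 in limma (0 of 12580 probes, 0%), with a smallest adjusted p of 0.323 and 1401 probes at an unadjusted p under 0.05 (832 higher in CD26- cells, 569 lower). Single genes are therefore described by size, and none is called changed. A gene or probe met the 2-fold rule if it lay at least 1 log2 unit above the self-hybridisation in each sheep, or at least 1 below it in each. Of 12438 probes with all values, 1329 were at least 2-fold higher (10.7%), 993 at least 2-fold lower (7.98%) and 110 at least 2-fold away in opposite directions (0.884%). Of 690 named genes with all values, 47 were higher by this rule (6.81%), 49 lower (7.10%) and 7 opposite (1.01%). These counts take in probes well above background on 1 side of the comparison alone, and BMP7 and IL10 are named genes of this kind. With only probes well above background on both sides, 1160 were higher and 881 lower. Counts in the gene lists below are to be read against the shares above, since most lists hold few genes. Both sheep were read against the same self-hybridisation, so its own error enters both.

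**Figure D1:**
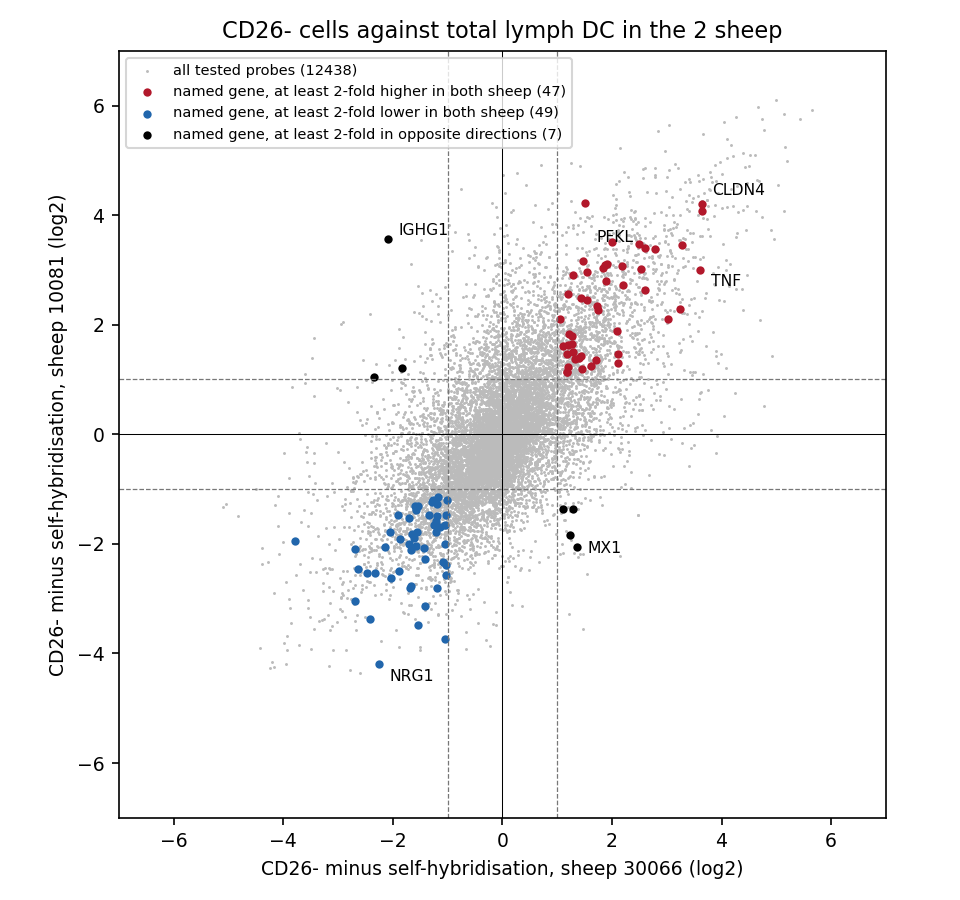
Difference between CD26- cells and the self-hybridisation of total DC for each tested probe, in sheep 30066 (horizontal axis, log2) and sheep 10081 (vertical axis, log2). Grey points are all 12438 probes with values in both sheep. Coloured points are the named genes past the 2-fold rule: 47 higher, 49 lower and 7 in opposite directions.

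3 settings bear on everything that follows. In an alternative called the all-spot fit, spots beside bright specks were kept when the background model was fitted. It left 613 probes at least 2-fold higher and 360 lower, and 21 of the 47 higher and 23 of the 49 lower named genes still met the rule. The all-spot value is given below for genes past the rule that it moved by more than 1.5 times. With each array centred on its median instead of loess, the median difference over all tested probes was -0.23 in place of -0.05, and 1040 probes were higher and 1141 lower. With log ratios scaled between arrays, the split was 1139 higher and 1274 lower, and 30 of the 47 and 29 of the 49 named genes still met the rule.

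Genes of peptide presentation lay on both sides of total DC in CD26- cells. Of 7 tested MHC class II genes, which present peptides from engulfed antigen, 1 met the 2-fold rule, downwards, and none upwards. Among all named genes 7.10% were lower and 6.81% higher by this rule. Their median difference was -0.60 (-0.12 in sheep 30066, -0.72 in sheep 10081), and it was 0.09 when log ratios were scaled between arrays. The gene that met the rule was DYA, the alpha chain of the ruminant class II molecule DY, with log2 ratios of -3.48, -1.63 and 0.31 and a difference of -2.87 (SE 1.22). DYA was well above background on the CD26- array of sheep 10081 but not on that of sheep 30066, and with the all-spot fit its difference was -1.25. It entered the test only through the self-hybridisation, where it was higher, so it supports no difference.

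The classical class II chains lay closer to total DC. DRA, the invariant alpha chain of DR, had log2 ratios of -1.01, -1.25 and -0.53. DRB1, a DR beta chain, had ratios of 0.60, 0.07 and 0.07, and its 3 probes spanned differences of 0.27 to 1.19. DRB3, another DR beta chain, had ratios of 0.04, 0.86 and 0.03. Here the sheep overlapped the self-hybridisation or differed from it by less than 2-fold in at least 1 animal. The DQ alpha chain DQA1 separated the sheep most, with ratios of -0.24, -3.61 and -0.13. DQA2 had ratios of 0.02, -0.86 and 0.20, and the DQ beta chain DQB1 had ratios of -0.13, -0.61 and -0.41.

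MHC class I molecules present peptides from inside the cell. All 15 probes for class I heavy chains were above the self-hybridisation in both sheep, which 33.7% of all probes were, with a median difference of 0.73 (0.37 in sheep 30066, 1.08 in sheep 10081) and a range of 0.42 to 1.49. The count was 14 with the all-spot fit, 13 with scaling between arrays, 9 with the scanner's processed signals, 6 with median centring and 5 against 0 in place of the self-hybridisation. Heavy chain alleles are alike in sequence, so these probes are not independent readings. 1 of them met the 2-fold rule, with log2 ratios of 1.45, 2.43 and 0.45 and a difference of 1.49 (SE 1.05), and its sequence is printed because it marks the upper end of the family.

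MHC class I heavy chain probe: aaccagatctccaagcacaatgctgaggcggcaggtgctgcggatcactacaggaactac

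Of 3 tested genes that work with the class I heavy chain, 2 were below the self-hybridisation in both sheep. B2M, the light chain shared by class I and CD1 molecules, had log2 ratios of -0.95, -2.06 and -0.37 and a difference of -1.14 (SE 0.71), which was -0.12 with scaling between arrays. PSME2, a subunit of the activator that opens the proteasome for peptide production, had ratios of -1.58, -2.05 and 0.00 and a difference of -1.81 (SE 0.51), a 3.51-fold lower level. Its other probe had a difference of -1.62. PSMB7, a subunit of the proteasome core, had ratios of 0.16, -0.79 and 0.05. Of these 3 genes PSME2 alone met the 2-fold rule.

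CD1 molecules hold lipid antigens. CD1B, on which the cells had been sorted, was among the brighter probes and had log2 ratios of -0.80, 0.30 and -0.74, a difference of 0.49 (SE 0.71). The probes annotated only as CD1 lay at -0.18, 0.03 and -0.22. CD1D, which presents lipids to natural killer T cells, stood above both with ratios of 2.18, 1.38 and 0.08 and a difference of 1.70 (SE 0.66). Its signal was dim, and the difference was 0.42 with the all-spot fit.

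Of 8 genes of lysosomal proteolysis with values in both sheep, 2 were at least 2-fold higher and 0 lower. The shares among all named genes were 6.81% and 7.10%. The list median was 0.45 and came to 0.09 with median centring. CTSB, a cathepsin that cleaves antigen, had log2 ratios of 1.30, 1.25 and 0.12 and a difference of 1.16 (SE 0.45). PSAP, the precursor of the saposins that help load lipids onto CD1, had ratios of 1.27, 1.32 and -0.05 and a difference of 1.35 (SE 0.43). The PSAP value comes from the brightest of 3 probes, and the others had differences of -0.29 and -0.02. CTSF, another cathepsin, had ratios of 0.87, 3.13 and 0.08, uneven in the animals. It was not well above background on the self-hybridisation. It entered the test only through the CD26- arrays, so it supports no difference. LGMN, a protease that cuts after asparagine, lay slightly below, at -0.28, -0.64 and 0.03. CTSD and the proton pump subunits ATP6V0C and ATP6V1E1 were within 2-fold of total DC in both sheep, as was NPC2, a carrier of cholesterol out of the lysosome. CTSS had a value in sheep 30066 alone, with a ratio of 0.15.

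**Figure D2:**
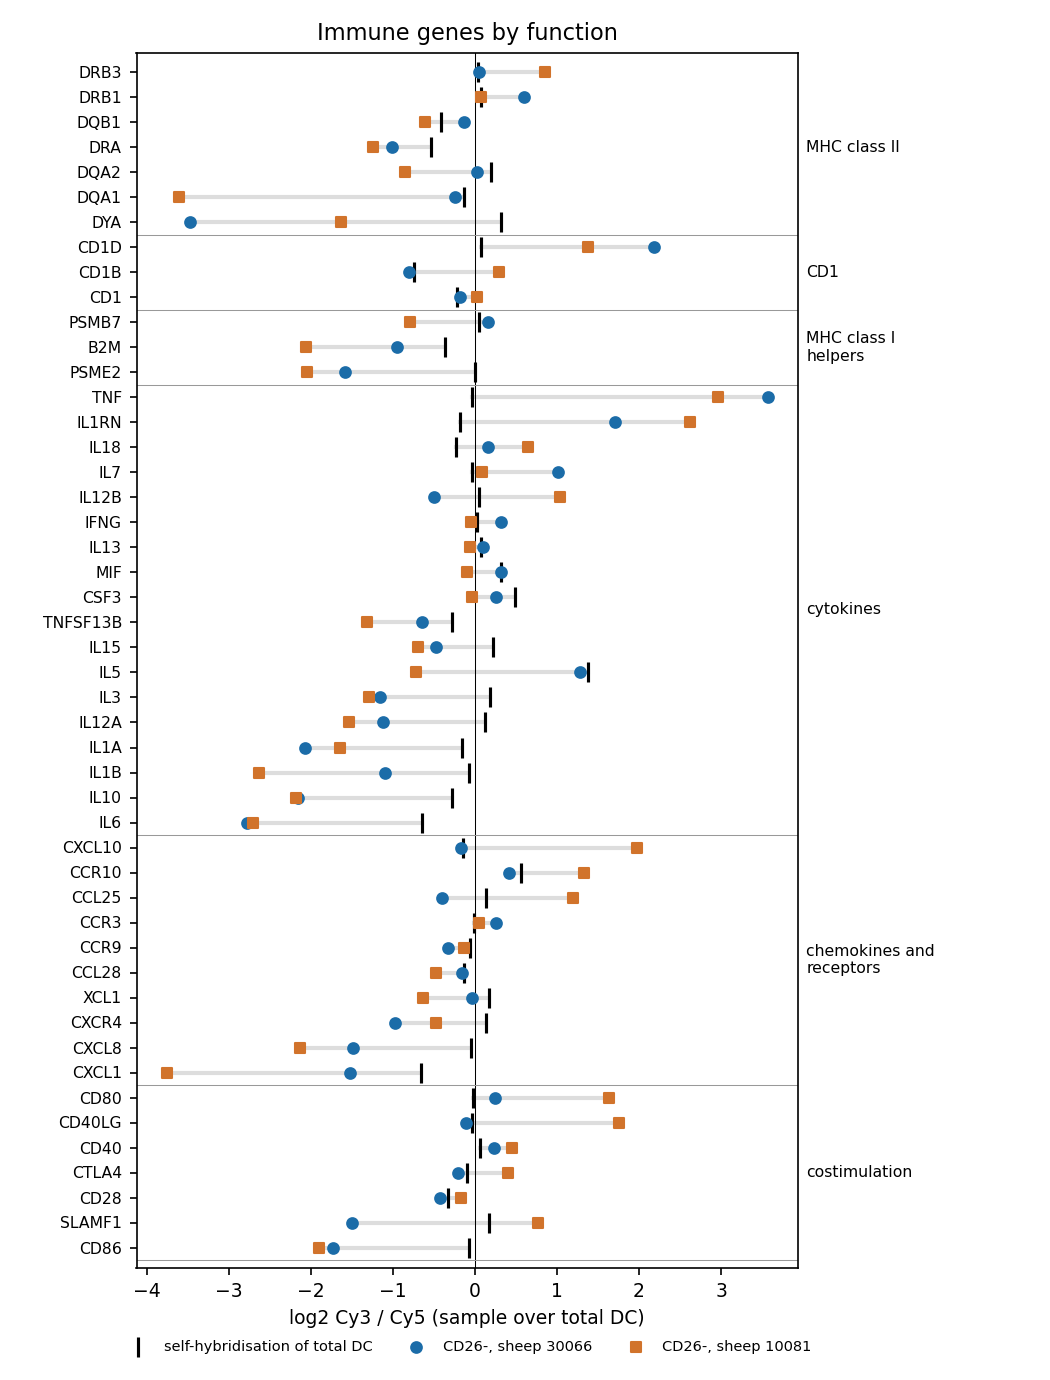
Log2 ratio of Cy3 over Cy5 (horizontal axis) for each immune gene with values in both sheep, grouped by function. Circles are CD26- cells of sheep 30066, squares those of sheep 10081 and black ticks the self-hybridisation. TNF and IL1RN sit to the right of their ticks in both sheep, and IL6, IL10, IL1B, IL1A, CXCL8 and CD86 sit to the left. IL10 was dim on both CD26- arrays and supports no difference.

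Cytokine genes spanned differences from -2.10 for IL6 to 3.31 for TNF. Of 18 tested inflammatory cytokines, 2 were at least 2-fold higher, TNF and IL1RN, and 6 at least 2-fold lower. Among all named genes 6.81% were higher and 7.10% lower. IL10, among the 6, supports no difference, as given below. 11 of the 18 were below the self-hybridisation in both sheep, against 38.9% of all probes, and the median difference was -0.54 (-0.30 in sheep 30066, -0.72 in sheep 10081). The median was 0.06 against 0 in place of the self-hybridisation and -0.24 with the all-spot fit, under which 0 of the 6 lower genes met the rule.

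TNF, the inflammatory cytokine that activates endothelium and matures DC, had log2 ratios of 3.57, 2.96 and -0.04. Its difference was 3.31 (SE 0.50), or 9.91-fold, and 1.97 with the all-spot fit. Both sheep stood far from the self-hybridisation, and they did so for this probe alone. A dimmer TNF probe, taken from a record of a part of the coding sequence, had ratios of 0.50, 0.50 and 0.09 and a difference of 0.41 (SE 0.47). The brighter probe holds the letters AATAAA, the usual signal for the addition of a poly(A) tail. They occur on the printed strand in 5.63% of the 15008 probes, and on either strand in 9.14%. The dimmer probe is printed because it carries the reading that differs, and no letters are marked in it.

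TNF coding probe: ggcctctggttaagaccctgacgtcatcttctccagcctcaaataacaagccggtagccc

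IL1RN is the secreted antagonist that blocks the interleukin 1 receptor. Its log2 ratios were 1.71, 2.62 and -0.18, and its difference was 2.34 (SE 0.58), or 5.07-fold. The agonists of the same receptor went the other way. IL1A had ratios of -2.07, -1.64 and -0.16 and a difference of -1.69 (SE 0.46), which was -0.96 with the all-spot fit. IL1B had ratios of -1.10, -2.63 and -0.07 and a difference of -1.80 (SE 0.81). For all 3 genes both sheep lay on the same side of the self-hybridisation, by at least 2-fold.

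IL6, a cytokine of inflammation and of B cell help, had log2 ratios of -2.78, -2.70 and -0.64. Its difference was -2.10 (SE 0.86), with -1.15 from the all-spot fit and -0.36 with scaling between arrays. IL10, which restrains DC activation, was not well above background on either CD26- array. It entered the test only through the self-hybridisation, where it was higher, so it supports no difference. Its ratios were -2.16, -2.19 and -0.28, both sheep below the self-hybridisation, and the all-spot fit gave a difference of -0.36. IL12A and IL3 were the other 2 lower cytokines and are named here after their values had been seen. IL12A, a chain of interleukin 12, had a difference of -1.45 (SE 0.47), and IL3, a growth factor of myeloid cells, of -1.41 (SE 0.63). With the all-spot fit these differences were -0.39 and -0.34.

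Other cytokines with bright probes did not meet the 2-fold rule by the probe that stands for the gene. IL12B, the chain shared by interleukins 12 and 23, had log2 ratios of -0.50, 1.03 and 0.05, on opposite sides in the sheep. IL15, which sustains natural killer and memory T cells, had ratios of -0.47, -0.69 and 0.21, a difference of -0.80 (SE 0.44). Its 3 dimmer probes had lower differences, down to -2.26, and each of them met the 2-fold rule downwards. The brightest probe thus gives the smallest IL15 difference of the 4. TNFSF13B, a survival factor of B cells, had ratios of -0.64, -1.31 and -0.28.

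Of 10 tested chemokines and their receptors, 1 was at least 2-fold lower and 0 higher, against 7.10% and 6.81% of all named genes. CXCL8, the neutrophil attractant, had log2 ratios of -1.49, -2.13 and -0.05 and a difference of -1.76 (SE 0.51). CXCL1, of the same family, had ratios of -1.53, -3.76 and -0.66, with only sheep 10081 past 2-fold. CXCL1 was -0.15 with scaling between arrays. CXCL10, an interferon-induced attractant of T cells, was level with total DC in sheep 30066 and above it in sheep 10081, with ratios of -0.16, 1.98 and -0.14. CXCR4, the receptor that guides cells toward CXCL12, had ratios of -0.97, -0.47 and 0.13. CCL25, CCL28, XCL1, CCR3, CCR9 and CCR10 had differences between -0.50 for XCL1 and 0.31 for CCR10.

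Receptors that sense microbes were mostly near total DC. Of 14 tested members, 1 was at least 2-fold lower and 0 were higher, against 7.10% and 6.81% of all named genes. The median was -0.23. CLEC4E, a lectin that senses mycobacterial glycolipid, had log2 ratios of -1.14, -2.49 and -0.11 and a difference of -1.71 (SE 0.72). TLR2, a sensor of bacterial lipoproteins, had ratios of -0.33, -0.83 and 0.19. CD14, which hands endotoxin to TLR4, had ratios of -1.16, 0.32 and 0.21. TLR6, the partner of TLR2, lay within 2-fold in both sheep, as did NOD2, a sensor of peptidoglycan.

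2 Fc receptors with different tasks lay on opposite sides. FCGRT, the receptor that salvages IgG and albumin from lysosomal degradation, had log2 ratios of 1.37, 2.59 and -0.50 and a difference of 2.48 (SE 0.65), or 5.57-fold. FCER1A, the binding chain of the IgE receptor, had ratios of -1.66, -1.37 and -0.07 and a difference of -1.45 (SE 0.45), which was -0.80 with the all-spot fit. FCER1G, the signalling chain shared by Fc receptors, had ratios of 0.19, 0.67 and 0.00. C5AR1, a complement receptor, had ratios of -1.75, -0.45 and 0.01 and a difference of -1.11 (SE 0.95), and -0.30 with the all-spot fit. Of the 5 tested genes of this list, FCGRT was the 1 member past the rule upwards and FCER1A the 1 downwards.

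Among 7 genes of costimulation and maturation, CD86 alone met the 2-fold rule. CD86, the ligand of CD28 on T cells, had log2 ratios of -1.73, -1.90 and -0.08 and a difference of -1.74 (SE 0.44), or 3.34-fold lower, with its other probe at -1.57. Its paralog CD80 had ratios of 0.25, 1.64 and -0.02. CD40, the receptor through which T cells license DC, had ratios of 0.24, 0.45 and 0.06. SLAMF1, a receptor of leukocyte contacts, went opposite ways in the sheep, at -1.49, 0.77 and 0.17. The sheep thus lay close together for CD86 and well apart for CD80 and SLAMF1.

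Adhesion genes split as well. Of 11 tested, 2 were at least 2-fold higher and 1 lower, against 6.81% and 7.10% of all named genes. ICAM1, a ligand of leukocyte integrins, had log2 ratios of 1.37, 1.86 and 0.25 and a difference of 1.36 (SE 0.55), which was 0.54 with scaling between arrays. ITGA4, the alpha 4 integrin chain, had ratios of 2.46, 2.25 and 0.37 and a difference of 1.98 (SE 0.43), with 1.23 from the all-spot fit and 0.81 with scaling between arrays. ITGB1, the beta chain with which alpha 4 can pair, had ratios of -1.49, -1.71 and 0.07 and a difference of -1.67 (SE 0.45). ITGB2, the beta chain of LFA-1, had ratios of -0.25, 0.54 and 0.00.

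Interferon-induced genes met the 2-fold rule in neither direction, 0 of 7. MX1 and MX2, antiviral GTPases, were both higher than total DC in sheep 30066 and lower in sheep 10081. MX1 had log2 ratios of 1.17, -2.26 and -0.20, and MX2 of 1.37, -1.28 and 0.09. ISG15, a ubiquitin-like protein induced by interferon, had ratios of -0.03, -1.75 and 0.21. The transcription factors IRF1, IRF2 and IRF3 had differences of 0.44, 0.26 and -0.14.

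Immediate early genes of the AP-1 family are induced within minutes of a stimulus, handling included. Of 10 tested members of the AP-1 and NF-kB list, 2 were at least 2-fold higher and 0 lower. Among all named genes 6.81% were higher and 7.10% lower. The list median was 0.62 (1.15 in sheep 30066, 0.28 in sheep 10081). JUNB had log2 ratios of 3.32, 2.36 and 0.08 and a difference of 2.76 (SE 0.61), or 6.77-fold. JUND had ratios of 2.90, 1.98 and -0.12 and a difference of 2.56 (SE 0.57), or 5.89-fold. For both genes the sheep were clear of the self-hybridisation, with sheep 30066 the higher animal.

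FOS, the partner of the JUN proteins, was past 2-fold in sheep 30066 only, with log2 ratios of 2.48, 0.54 and -0.02. EGR1, a zinc finger factor of the same early wave, had ratios of 1.82, 0.46 and 0.17, and its 4 probes had differences from 0.97 to 2.37. The probe at 2.37 was not well above background in either dye of the self-hybridisation. It entered the test only through the CD26- arrays and supports no difference. The next highest probe gave 1.24. JUN itself was one of the brightest genes and lay near total DC, at 0.50, 0.48 and 0.26. ZFP36, which destabilises TNF and other cytokine mRNAs, had ratios of 0.91, -1.56 and -0.20 for its brighter probe, opposite in the sheep, and 3.48, 1.93 and 0.26 for its dimmer probe. NFKBIA, the inhibitor of NF-kB, had ratios of -0.35, -1.95 and -0.44. IKBKB, the kinase that releases NF-kB from that inhibitor, had ratios of 3.50, 3.68 and 0.22 and a difference of 3.37 (SE 1.21). For IKBKB the other probe gave 2.32, and the all-spot fit gave 1.46.

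Of 7 tested genes of heat shock and ER stress, ATF6 alone met the rule. ATF6, a sensor of unfolded protein in the endoplasmic reticulum, had log2 ratios of 1.71, 2.91 and -0.13 and a difference of 2.44 (SE 0.65), and 0.82 with the all-spot fit. XBP1, another factor of that response, had ratios of -0.72, -0.65 and 0.05. HSPA1A and HSP90AA1, which respond to heat, lay on different sides in the sheep. HSPA1A had ratios of -0.28, 1.48 and -0.04, and HSP90AA1 of 1.65, -0.52 and 0.09.

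Glycolysis was the list with the most members past the 2-fold rule upwards. Of 15 tested genes of glycolysis, the pentose phosphate branch and sugar transport, 5 were at least 2-fold higher and 1 lower, with a median difference of 0.95, against 6.81% and 7.10% of all named genes. Over the alternative processing settings this median lay between 0.31 and 1.29, and over the sheep taken singly it was 0.22 in sheep 30066 and 0.64 in sheep 10081. PFKL, a subunit of phosphofructokinase, which commits sugar to glycolysis, had log2 ratios of 3.02, 3.63 and 0.24 and a difference of 3.08 (SE 0.49), or 8.47-fold. ALDOA, the aldolase that splits the resulting sugar diphosphate, had ratios of 2.85, 3.83 and 0.36 and a difference of 2.98 (SE 0.62), with its other probe at 3.02. GAPDH, the next enzyme of the pathway, had ratios of 1.47, 1.46 and 0.08 and a difference of 1.39 (SE 0.42), and its 4 other probes reached up to 2.14. For these 3 genes both sheep stood above the self-hybridisation.

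PGD, the dehydrogenase of the pentose phosphate branch that yields NADPH, had log2 ratios of 1.65, 3.15 and -0.36 and a difference of 2.76 (SE 0.82). TALDO1, a transaldolase of that branch, had ratios of 1.47, 1.28 and 0.42 and met the rule in sheep 30066 only. LDHA, which makes lactate, lay near total DC at 0.18, 0.31 and -0.04. Sugar carriers differed among themselves. SLC2A8, a glucose carrier of internal membranes, had ratios of 1.34, 2.72 and 0.15 and a difference of 1.88, with a wide SE of 2.40. SLC2A5, the fructose carrier, had ratios of -2.35, -3.30 and 0.07 and a difference of -2.90 (SE 0.58), which was -1.44 with the all-spot fit. SLC2A1, the common glucose carrier, had ratios of -0.05, 0.77 and 0.12.

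**Figure D3:**
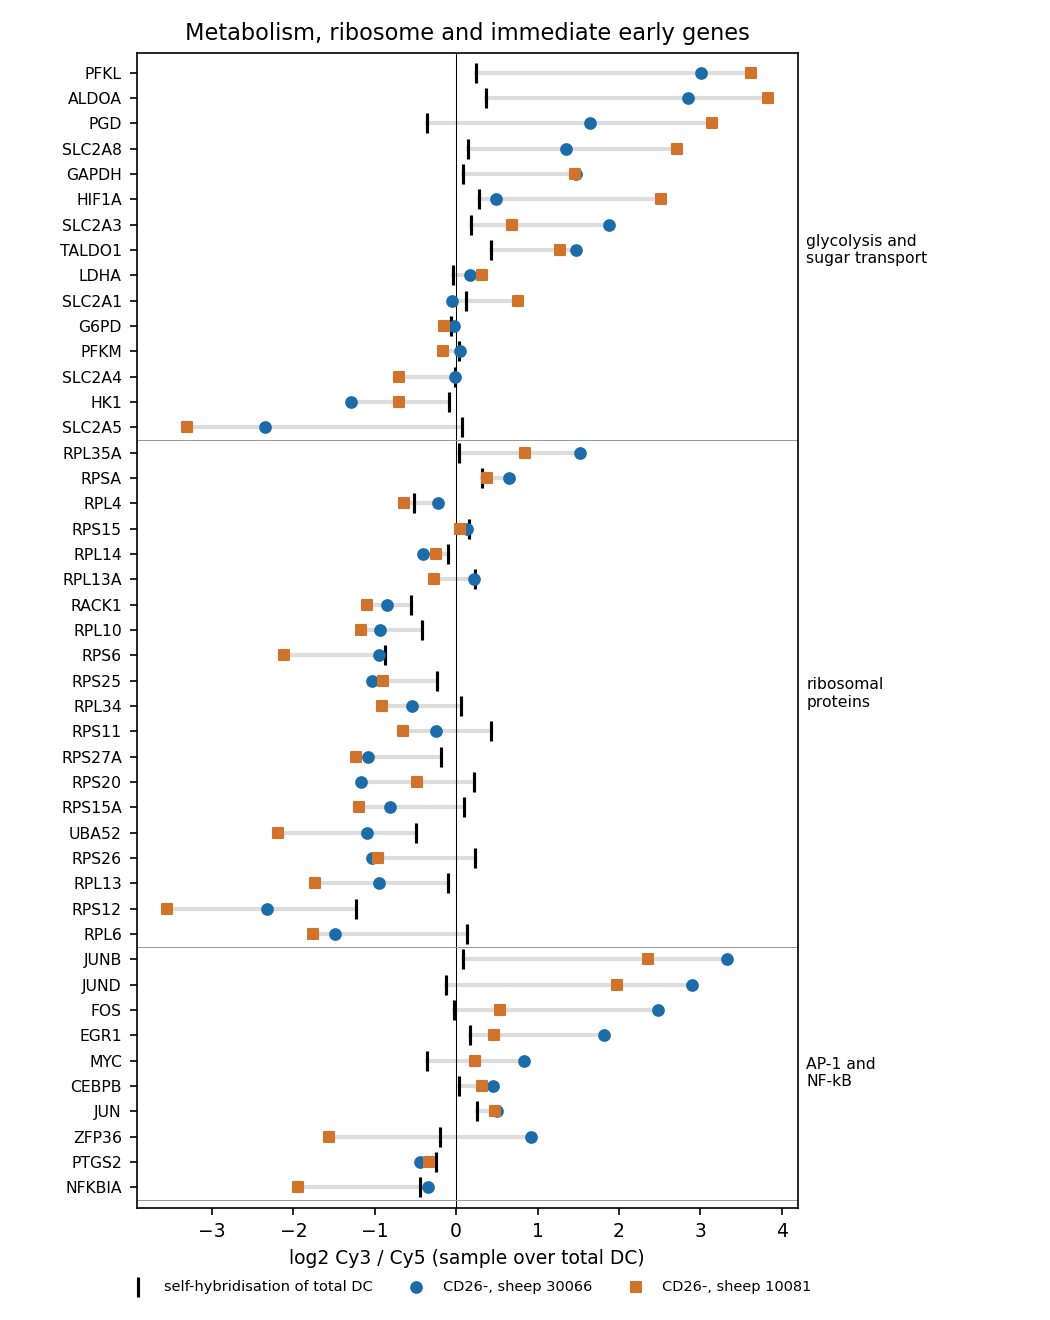
Log2 ratio of Cy3 over Cy5 (horizontal axis) for genes of glycolysis and sugar transport, ribosomal proteins and the AP-1 and NF-kB list, with circles for CD26- cells of sheep 30066, squares for sheep 10081 and black ticks for the self-hybridisation. PFKL, ALDOA, PGD, JUNB and JUND lie to the right of their ticks, and 17 of 20 ribosomal protein genes lie to the left in both sheep.

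Ribosomal protein genes lay mostly below total DC by small amounts. Of 20 tested, 3 were at least 2-fold lower and 0 higher, against 7.10% and 6.81% of all named genes. In both sheep 17 were below the self-hybridisation, against 38.9% of all probes. The median difference was -0.76. The count below in both sheep was 11 with scaling between arrays, under which RPS12 was 1.17. RPL6 had log2 ratios of -1.48, -1.76 and 0.13 and a difference of -1.75 (SE 0.48). RPS12 had ratios of -2.32, -3.56 and -1.23, so the self-hybridisation itself was off 0 for this bright probe, and the difference was -1.71 (SE 0.74). RPS26 had ratios of -1.03, -0.96 and 0.23 and a difference of -1.23 (SE 0.43). RPL35A was the member farthest above total DC, at 1.52, 0.85 and 0.03. EEF1A1, the elongation factor that brings tRNA to the ribosome, was higher, with ratios of 0.99, 0.94 and -0.20, a difference of 1.16 (SE 0.43) and a range of 1.03 to 1.52 over 5 probes, but 0.43 with the scanner's processed signals. It was the 1 of 7 translation factors past the rule.

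Of 11 tested genes of redox and iron handling, 2 were at least 2-fold lower and 0 higher, against 7.10% and 6.81% of all named genes. TXN, thioredoxin, which reduces protein disulfides, had log2 ratios of -1.78, -3.73 and -0.25 and a difference of -2.51 (SE 1.11), and its other probe gave -2.31. SOD2, the mitochondrial superoxide dismutase, had ratios of -1.70, -2.29 and 0.33 and a difference of -2.33 (SE 0.64), and its other probe gave -2.11. FTH1, the heavy chain of ferritin, had a difference of -1.15 (SE 0.56) from ratios of -1.55, -2.41 and -0.83, and this became 0.78 with scaling between arrays. CYBA, a subunit of the phagocyte oxidase, had ratios of 1.46, 0.33 and 0.32. SDHD, of mitochondrial complex II, had ratios of -2.74, -0.55 and 0.06.

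Lipid and sterol genes held members on both sides. Of 21 tested, 2 were at least 2-fold higher and 3 lower, against 6.81% and 7.10% of all named genes. SQLE, the squalene epoxidase of cholesterol synthesis, had log2 ratios of -1.68, -3.41 and -0.28 and a difference of -2.27 (SE 0.83). PPARA, a nuclear receptor that drives fatty acid oxidation, had ratios of -1.54, -2.66 and 0.14 and a difference of -2.24 (SE 0.66), and -1.16 with the all-spot fit. PPARG, its relative that favours lipid storage, lay on the other side, with ratios of 0.89, 1.94 and -0.16 and a difference of 1.58 (SE 0.82). DGAT1, which makes triglyceride, had ratios of 1.38, 1.90 and 0.11 and a difference of 1.53 (SE 0.96). FABP5, a fatty acid carrier, had ratios of -2.60, -3.70 and -0.92. Its difference of -2.22 (SE 0.84) became 0.14 with scaling between arrays.

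Of 9 tested cytoskeletal genes, KIF5B alone met the 2-fold rule. KIF5B, the heavy chain of kinesin that carries vesicles along microtubules, had log2 ratios of -2.63, -2.98 and 0.06 and a difference of -2.87 (SE 0.46), or 7.29-fold lower. MYLK, the kinase of myosin light chains, was far above total DC in sheep 30066 only, at 4.23, 0.51 and 0.17. The actins ACTB and ACTG1 and the filament protein VIM had differences of 0.51, 0.78 and 0.83, although ACTB had a further probe at -1.51. H2AZ1, a histone variant, was the 1 of 6 cell cycle and chromatin genes past the rule, with ratios of -1.93, -2.37 and -0.26 and a difference of -1.89 (SE 0.57), or -0.94 with scaling between arrays. PCNA, the sliding clamp of DNA replication, had ratios of -0.76, -1.65 and -0.10. BAD, which promotes apoptosis, was the 1 of 9 survival genes past the rule, at 1.31, 1.74 and 0.11, with a difference of 1.41 (SE 0.67) and 0.77 with the all-spot fit. MCL1, which opposes apoptosis, had ratios of -0.74, -2.03 and -0.07.

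The BMP and TGF-beta pathway signals from ligands through paired receptors to SMAD proteins. Of 25 tested members, 3 were at least 2-fold higher and 1 lower, against 6.81% and 7.10% of all named genes. The list median was 0.11 (0.18 in sheep 30066, 0.04 in sheep 10081) and -0.31 at its lowest alternative. The ligand BMP7, 1 of these 3, was not well above background in either dye of the self-hybridisation and entered the test only through the CD26- arrays, where it was high, so it supports no difference. Its log2 ratios were 1.97, 2.86 and -0.22, and the all-spot fit gave 0.89. The receptor ACVR2A had ratios of 1.02, 1.04 and -0.18 and a difference of 1.21 (SE 0.91). SMAD7, which inhibits the receptors, had ratios of 1.28, 1.28 and -0.15 and a difference of 1.44 (SE 0.43). With the all-spot fit these last differences were 0.39 and 0.63. SMAD2, which carries the TGF-beta signal to the nucleus, had ratios of -1.05, -1.12 and 0.14 and a difference of -1.23 (SE 0.59).

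The receptor TGFBR2 gave unlike readings from its probes, which are printed for that reason, with no letters marked. The brighter probe had log2 ratios of -0.85, 0.06 and 0.30 and a difference of -0.70 (SE 0.64). The dimmer one, not well above background in either dye of the self-hybridisation, had ratios of 2.38, 2.90 and 0.16. Like BMP7, it entered the test only through the CD26- arrays and supports no difference. Both come from records of a part of the coding sequence.

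TGFBR2 brighter probe: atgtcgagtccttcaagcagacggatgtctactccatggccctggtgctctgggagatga
TGFBR2 dimmer probe: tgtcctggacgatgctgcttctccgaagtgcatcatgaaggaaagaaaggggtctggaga

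Claudins seal contacts between epithelial cells, and some are made by DC. Of 10 tested junction genes, 2 were at least 2-fold higher and 0 lower, against 6.81% and 7.10% of all named genes. CLDN4 had the largest difference of all named genes past the rule, with log2 ratios of 3.46, 4.03 and -0.18. Its difference was 3.92 (SE 0.60), or 15.2-fold, its other probe gave 4.0, and the all-spot fit gave 3.20. CLDN3 had ratios of 2.55, 2.58 and -0.06 and a difference of 2.62 (SE 0.42), and 1.45 with the all-spot fit. CLDN1, a claudin of Langerhans cells and epidermis, had ratios of 0.83, 0.78 and -0.14, a difference of 0.94 (SE 0.44). CTNNBL1, a nuclear splicing protein named after catenin, had ratios of -0.36, -1.22 and 0.26.

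CHI3L1, a chitinase-like glycoprotein secreted by macrophages, was the 1 of 10 matrix and protease genes past the rule, upwards, but it was not well above background in either dye of the self-hybridisation and entered the test only through the CD26- arrays. Its log2 ratios were 2.27, 2.78 and 0.06, with a difference of 0.78 from the all-spot fit, and they support no difference. TIMP1, an inhibitor of matrix proteases, had ratios of 0.48, 0.01 and -0.06.

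Growth factor genes held 1 of the larger differences on each side. IGFBP4, which binds insulin-like growth factors, had log2 ratios of 3.66, 4.09 and 0.02 and a difference of 3.85 (SE 1.04), or 14.5-fold, with its other probe at 4.03 and 2.02 from the all-spot fit. NRG1, a ligand of ERBB receptors, had ratios of -2.33, -4.28 and -0.09 and a difference of -3.22 (SE 1.73), or 9.3-fold lower. They were the 1 higher and the 1 lower of 28 tested growth factors and receptors. NRP1, a coreceptor also known from plasmacytoid DC, had ratios of -2.15, -1.06 and -0.24, and missed the rule in sheep 10081.

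**Figure D4:**
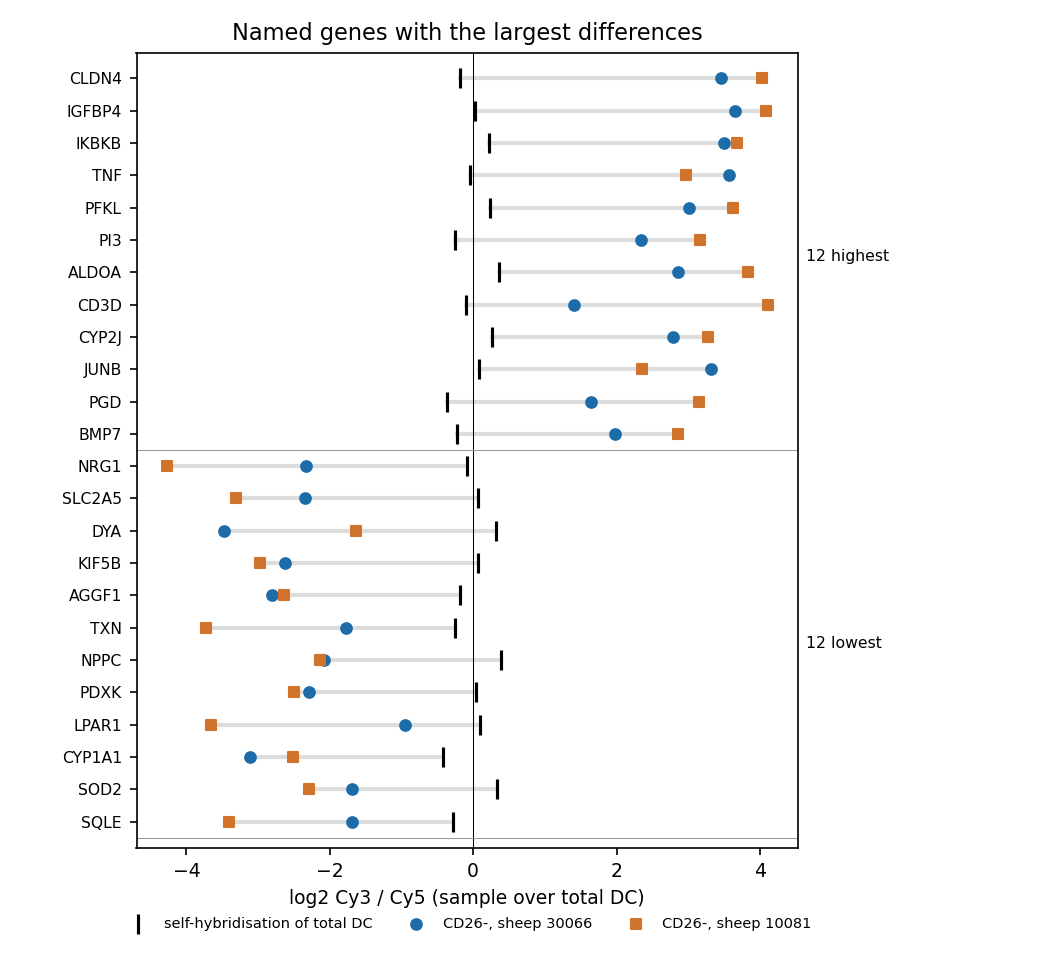
Log2 ratio of Cy3 over Cy5 (horizontal axis) for the 12 named genes with the largest differences in each direction among those past the 2-fold rule, with circles for CD26- cells of sheep 30066, squares for sheep 10081 and black ticks for the self-hybridisation. CLDN4 lies at 3.46 and 4.03 in the CD26- samples, and NRG1 of sheep 10081 farthest to the left, at -4.28.

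Other genes among the largest differences belonged to no list. PI3, a secreted inhibitor of elastase, had log2 ratios of 2.35, 3.16 and -0.25 and a difference of 3.0 (SE 0.75), and 1.75 with the all-spot fit. CYP2J, a cytochrome that oxidises arachidonic acid, had ratios of 2.79, 3.27 and 0.26, and 0.85 as its difference with that fit. It was not well above background in either dye of the self-hybridisation and, like BMP7, supports no difference. On the lower side, AGGF1, an angiogenic factor, had ratios of -2.81, -2.64 and -0.18 and a difference of -2.54 (SE 0.52), and -1.19 with that fit. NPPC, the precursor of C-type natriuretic peptide, had a difference of -2.50 (SE 0.55) from ratios of -2.08, -2.13 and 0.39, and -1.74 with that fit. PDXK, which activates vitamin B6, had a difference of -2.43 (SE 1.11) from ratios of -2.29, -2.50 and 0.04.

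The sheep were less alike for LPAR1, a receptor of lysophosphatidic acid, with log2 ratios of -0.95, -3.65 and 0.09 and a difference of -2.40 (SE 1.31), and -1.58 with the all-spot fit. CYP1A1, a cytochrome induced through the aryl hydrocarbon receptor, was not well above background on either CD26- array. It entered the test only through the self-hybridisation and supports no difference. It had ratios of -3.11, -2.52 and -0.42, and the all-spot fit gave a difference of -0.51.

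**Figure D5:**
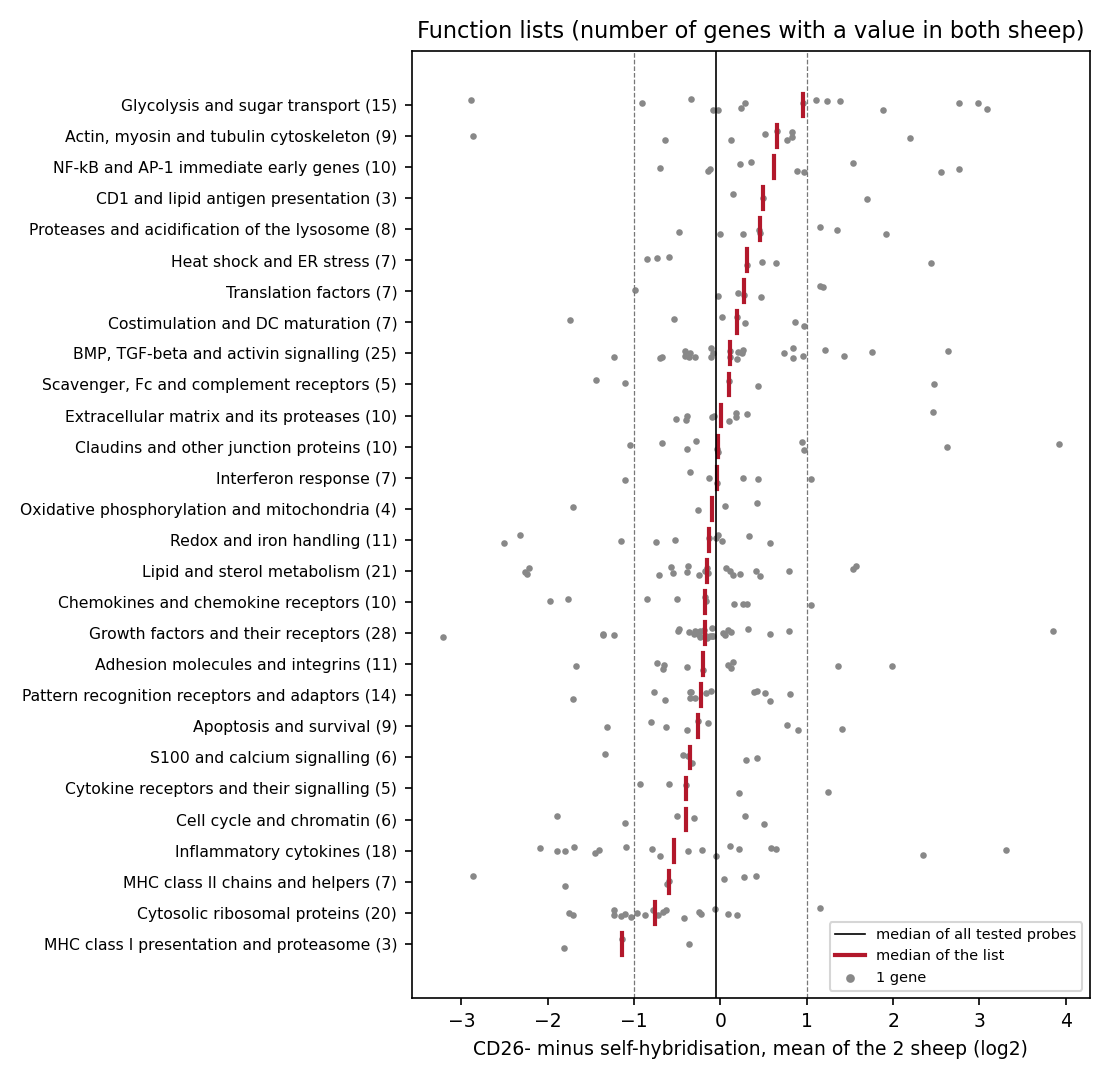
Mean difference between CD26- cells and the self-hybridisation (horizontal axis, log2) for each gene of 28 function lists, with the number of genes beside each list. Grey points are genes, red bars list medians and the black line the median of all tested probes at -0.05. Glycolysis and sugar transport has a median of 0.95 and the ribosomal proteins of -0.76.

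Markers of cells that a sort could carry along were read as whole lists. Of 11 T cell genes on the array, 10 were tested. Of these, 3 were at least 2-fold higher and 1 lower, against 6.81% and 7.10% of all named genes. The list median was 0.60 (0.08 in sheep 30066, 0.86 in sheep 10081). With the all-spot fit 0 were at least 2-fold higher. CD3D, a chain of the T cell receptor complex, had log2 ratios of 1.41, 4.11 and -0.10 and a difference of 2.87 (SE 1.73), and 1.37 with the all-spot fit. TRAC, the constant part of the receptor alpha chain, had ratios of 1.49, 2.09 and 0.27 and a difference of 1.52 (SE 0.53). GATA3, a transcription factor of T cells, had ratios of 1.89, 1.53 and 0.27 and a difference of 1.43 (SE 1.13). With the all-spot fit TRAC was 0.90 and GATA3 0.78.

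CD247, the signalling chain of the same receptor complex, lay on the other side, with log2 ratios of -1.92, -2.53 and -0.03 and a difference of -2.20 (SE 0.68). CD3E had ratios of 1.23, 1.43 and 0.50, CD3G of -0.03, 0.23 and -0.26, and CD4 was not well above background on either CD26- array. The summed Cy3 level of the 11 genes was 11670.3 intensity units in sheep 30066, 19693 in sheep 10081 and 13846 in total DC. Of 24 probes for T cell receptor chains with all values, 1 was at least 2-fold higher and 1 lower, against 10.7% and 7.98% of all probes. Their median was -0.10. All 7 probes for T19 (WC1), a receptor of ruminant gamma delta T cells, were below the self-hybridisation in both sheep, against 38.9% of all probes. Their median was -0.62, and 4 of the 7 were below in both sheep with the all-spot fit or with scaling between arrays. Signal was dim: 2 of the 7 were well above background in Cy3 in sheep 30066, 6 in sheep 10081 and 7 on the self-hybridisation. Most of the 7 thus entered the test only through the self-hybridisation, where they were higher, so their count supports no difference. The part of T cells in any value above was not tested.

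Of 5 monocyte and macrophage genes the summed Cy3 level was 53322 intensity units in sheep 30066, 34395 in sheep 10081 and 98775 in total DC. A sum is weighted to the brightest genes and does not stand for a change across the list. Of 4 tested members, 1 was above and 1 below the self-hybridisation in both sheep, with a median difference of -0.32. The members past the rule went opposite ways. FABP5 was lower, with a difference of -2.22 that changed sign with scaling between arrays, and CHI3L1 was higher but supports no difference, as above. ITGAM was not well above background in CD26- cells. LYZ, lysozyme, was the brightest remaining member and had log2 ratios of 0.25, -0.39 and -0.07. For B cells, IGHM, the IgM heavy chain, had ratios of -3.72, 0.82 and -0.11, far apart in the sheep. Of 69 immunoglobulin chain probes, 0 were at least 2-fold higher, 2 lower and 2 opposite, against 10.7%, 7.98% and 0.884% of all probes. The summed Cy3 level of 89 such probes was 39292 intensity units in sheep 30066, 80132 in sheep 10081 and 45428 in total DC. GNLY, the natural killer cell granule protein, had a ratio of -4.89 in sheep 30066 against 0.39 on the self-hybridisation, and no value in sheep 10081. Of the skin markers, COL1A1, COL3A1 and KDR lay within 2-fold in both sheep, and DCN was not well above background in CD26- cells. HBB of red cells had ratios of -0.18, 0.02 and -0.12. The part of these cells in the results was not tested.

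Markers of DC subsets were few. TLR3, a sensor of double-stranded RNA and the 1 marker of cross-presenting DC on the array, had log2 ratios of -1.30, 0.23 and -0.19. Of 4 tested markers of the other conventional subset, FCER1A was lower as above, TLR8 had ratios of 0.31, 0.93 and -0.18, CLEC6A of -0.06, 0.92 and -0.15, and CLEC7A of -0.12, -0.17 and 0.14. For plasmacytoid DC, NRP1 was as above and TLR9 had ratios of 0.44, -0.05 and 0.30.

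Whether a value is particular to CD26- cells needs their comparison with CD26+ cells of the same sheep. That test called no probe in limma (0 of 12642, 0%), with a smallest adjusted p of 0.732 and 728 probes at an unadjusted p under 0.05. None of the genes above is therefore called particular to CD26- cells.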

How the data were processed

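Sheep DC RNA was measured on 5 Agilent 2-colour arrays with 15744 spots. What the authors deposited per array is the scanner output: spot intensity in linear units, with local background and no normalisation, from Feature Extraction 9.5.3.1, as stated per the file headers. The same files give a log10 ratio of the dyes, per the file headers. The authors' deposited value table has log2 ratios. They equalled the scanner's log10 ratio with its sign turned and its base changed, to within 5e-10, and so are Cy3 over Cy5. The medians of its columns were -0.0681 to 0.0152. Any further centring is not given in the sources used here.

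Mean spot signals were corrected with normexp (offset 50) and normalised by loess within each array, and log2 of Cy3 over Cy5 was taken, with limma 3.58.1 in R 4.3.3. Spots with a local background over 5 times the array median (0 to 9 per array) took no part in the normexp model and were left out, as were 536 control spots and 49 to 157 spots per array with an outlier flag. Repeat spots of a probe were averaged. The model (lmFit, then eBayes) had 3 group means over 5 arrays, with Benjamini-Hochberg adjustment over all tested probes. A group mean of 2 arrays and a dye control of 1 limit the precision (2 residual degrees of freedom), and both sheep share the 1 self-hybridisation. The script was tested on simulated data. There the 2-fold rule also took in many probes made with no change, and limma called none of the probes made with one. Meeting the rule does not by itself show a change.

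Genes were named through the annotation columns of the array files and a RefSeq gene table, which left 13462 of the 15008 probes unnamed. The text names the 12 largest mean differences in each direction among named genes past the 2-fold rule, up to 4 members of each function list per direction that met the rule, up to 4 further members by intensity, and any member of lists of up to 12 measured genes. A gene not well above background on either CD26- array, or in either dye of the self-hybridisation, is given by its ratios, with no fold. Members and lists were chosen with earlier results of these data known, and so was the limit on local background. Same-numbered samples come from the same sheep, and the deviations of CD26- and CD26+ arrays of a sheep from their group means correlated with r = 0.33 over probes. The alternatives tried were other background corrections, normalisations, filters and dye controls, sheep as a block, and each array left out.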

Additional observations from a re-analysis of the deposited data

Results flagged for a closer look

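7 named genes were at least 2-fold away from the self-hybridisation in opposite directions in the sheep, which 1.01% of named genes with all values were. The difference between the sheep was not tested, since each has 1 CD26- array. Subtracting sheep 10081 from sheep 30066 on the log2 scale gave 3.42 for MX1 and 2.65 for MX2, antiviral GTPases induced by interferon. It gave 3.07 for CREM, a transcription factor of the cAMP response, and 2.47 for ZFP36, which destabilises cytokine mRNAs, although its dimmer probe was higher than total DC in both sheep. The remaining 3 genes ran the other way. The value was -3.05 for DNMT1, the maintenance DNA methyltransferase, -3.40 for HYAL2, a hyaluronidase, and -5.66 for IGHG1, an IgG heavy chain.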

How the results depend on the processing

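limma called 0 probes against total DC under every alternative that could be run except 1: with the CD26- ratio set against 0, without the self-hybridisation, it called 1207 probes, a test that takes the dye effect as 0. The counts at least 2-fold higher and lower, 1329 and 993, were 613 and 360 with the all-spot fit. Leaving out an array gave 1329 to 2617 higher and 993 to 2070 lower: 2617 and 2070 without CD26- sheep 30066, and 2007 and 1789 without CD26- sheep 10081, where 1 animal has to meet the rule in place of 2. The other settings stayed within 1.5 times. CD26- against CD26+ gave 0 calls in limma wherever that contrast could be fitted.

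Sheep is a true pairing of the CD26- and CD26+ arrays. With sheep as a fixed replicate block limma called 0 probes (smallest adjusted p 0.221, 2096 at an unadjusted p under 0.05), and the counts stayed 1329 and 993. A random block (duplicateCorrelation) could not be fitted, since it needs more arrays than this design has.

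Of the 169 genes named in the text, 79 moved by more than the SD between sheep with log ratios scaled between arrays, 57 with median centring, 54 with the all-spot fit, 45 against 0 and 31 with the scanner's processed signals. 3 genes past the 2-fold rule reversed, all with scaling between arrays: RPS12 to 1.17, FABP5 to 0.14 and SLC16A1 to -0.19. Of 39 list medians, 22 moved so with scaling between arrays, 18 with median centring, 16 against 0, 14 with the all-spot fit, 13 without CD26- sheep 30066 and 9 without CD26- sheep 10081. That scaling also took TRAC to 0.63, GATA3 to 0.58, CTSB to 0.67, BAD to 0.86, GAPDH to 0.93, DGAT1 to 0.97 and IL10 to -0.92. Median centring took PSAP to 0.85, ICAM1 to 0.91, CTSB to 0.93, ACVR2A to 0.96 and EEF1A1 to 0.60. The mean over all probes of a gene took TNF to 1.86, PSAP to 0.35 and ACVR2A to 0.93. The cause was not tested. Values of dim probes are limited by signal over background.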

Other observations

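Some named genes outside the function lists also met the 2-fold rule and are described here after their values had been seen. AQP3, a channel for water and glycerol, had log2 ratios of 1.64, 3.32 and 0.16 in sheep 30066, sheep 10081 and the self-hybridisation, a difference of 2.32 (SE 0.96). 2 genes of the secretory path lay above total DC in both sheep. DERL1, which helps to remove misfolded protein from the endoplasmic reticulum, had ratios of 2.11, 2.72 and 0.39 and a difference of 2.03 (SE 0.68), which was 1.33 with the all-spot fit and 0.79 with scaling between arrays. DDOST, a subunit of the enzyme that adds N-glycans, had ratios of 1.70, 2.22 and -0.05 and a difference of 2.01 (SE 0.57). SRP14, of the particle that brings ribosomes to that compartment, lay below, with ratios of -1.88, -1.63 and 0.16 and a difference of -1.92 (SE 0.49).

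SLC16A1, a carrier of lactate and pyruvate, had log2 ratios of 1.92, 2.14 and 0.64 and a difference of 1.39 (SE 0.53), which was -0.19 with scaling between arrays. ENO3, an enolase of glycolysis, had ratios of 1.63, 1.36 and 0.17 and a difference of 1.32 (SE 0.73), with 0.46 from the all-spot fit. ARG2, the mitochondrial arginase, had ratios of -1.25, -2.86 and -0.06 and a difference of -2.0 (SE 1.11). SRSF3, a splicing factor, had a difference of -1.85 (SE 0.58) from ratios of -1.17, -2.03 and 0.25. PTX3, a secreted pattern recognition protein, had ratios of -1.08, -1.66 and 0.13 and a difference of -1.50 (SE 0.63). ROBO1, a guidance receptor, was not well above background on either CD26- array and, like CYP1A1, supports no difference. Its ratios were -1.89, -2.19 and -0.18, and the all-spot fit gave a difference of -0.42.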
